A study of Mus musculus with 47 samples.

Results

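The data compared here are 6 RNA-seq libraries of basal mammary epithelial cells, 3 from mice at 3.5 days of pregnancy (P3.5) and 3 from never-pregnant females at 10 weeks of age (W10), out of 46 libraries in the whole table. They were taken by their column labels alone, so no measured value chose them, and the change between both time points could be tested. All mice were of the FVB/N strain, carried no transgene or other allele named in the labels, and received no treatment other than mating of the P3.5 females. Basal cells were sorted as lineage-negative cells with CD24 and a high level of CD29 (integrin beta 1, *Itgb1*), luminal cells as those with a low level of CD29, and each sort pooled the glands of several mice, so a library is a pool and not a single animal. The labels give no stage of the oestrous cycle, and the study adjusted its gates slightly in each sort. Luminal libraries of the same sorts (3 at P3.5, 3 at W10) and 3 basal libraries of never-pregnant females at 4 months (M4) serve below as comparisons.

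The basal layer of the mammary epithelium holds contractile myoepithelial cells, which squeeze milk from the alveoli, together with cells that have stem cell activity. In early pregnancy, ovarian hormones start a wave of cell division that builds side branches and alveolar buds in both epithelial layers. A cell that divides copies its DNA in S phase, with the MCM helicase, the clamp PCNA and enzymes that make nucleotides, and then separates its chromosomes in mitosis, with cyclins A and B, the kinase CDK1, spindle motors and the spindle checkpoint. Lysophosphatidic acid (LPA) is a lipid signal that the enzyme autotaxin (*Enpp2*) makes outside cells, that receptors *Lpar1* to *Lpar6* sense, and that lipid phosphate phosphatases remove. Wnt ligands act through Frizzled receptors and beta-catenin (*Ctnnb1*) on TCF and LEF factors.

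The basal W10 libraries held 12847730, 8113350 and 10649797 reads on genes (replicates 3, 5 and 6), and those of P3.5 held 13818887, 11185770 and 10984471 (replicates 2, 4 and 6). At these depths 3 reads, taken as the smallest level that can be measured, amount to between 0.17 and 0.308 CPM (reads scaled by library size, the unit of the table). The labels give lane 2 and RNA amplification batch 4 for every W10 library, and lane 5 and batch 6 for every P3.5 library. Time point, lane and batch therefore cannot be told apart in this comparison. Luminal and basal libraries of W10 shared both lane and batch, and so did those of P3.5. The M4 basal libraries (replicates 1, 2 and 6) were on lane 7, in amplification batches 2, 1 and 3. They thus shared neither lane nor batch with W10 or P3.5. Libraries of the same time point resembled each other more than those of different ones (squared correlation across genes of 0.9455 to 0.9574 among W10, 0.9535 to 0.963 among P3.5, and 0.8454 to 0.908 between them, given as a description). A library that stood apart was M4 basal replicate 2, in which the 42 mitosis genes described below summed to 2398 CPM, against 372 and 428 in the other M4 basal libraries. The luminal W10 replicate 3 stood apart from the other 11 libraries of W10 and P3.5 on the third principal component, with a score of 65.4, and that component held 5.98% of the variance.

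Both groups carried the markers of basal cells. *Trp63*, the transcription factor of basal epithelia, stood at 875, 809.9 and 999 CPM in the W10 libraries and at 905, 665 and 606 at P3.5, against 13.7 or less in all 6 luminal libraries. Keratin 5 (*Krt5*) lay between 1469 and 1997 at W10 and between 2227 and 3092 at P3.5, and the groups did not overlap, but the log2 difference of 0.64 ± 0.79 (SE) had an adjusted p of 0.668 in limma. *Acta2*, smooth muscle actin, lay between 8588 and 13108 at W10 and between 4826 and 5883 at P3.5, with a log2 difference of -0.86 ± 0.62 and an adjusted p of 0.392. *Cd24a* and *Itgb1*, the genes of both sort markers, had log2 differences of -0.18 ± 0.37 and -0.09 ± 0.22 (adjusted p = 0.821 and 0.864).

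Between W10 and P3.5, 848 genes rose and 306 fell in basal cells among 17078 genes tested (limma on log2 of CPM + 1, at least 2-fold on that scale, adjusted p under 0.01). These are 4.97% and 1.79% of all genes (6.76% in either direction), the background against which the counts below are read, and the median log2 difference over all genes was -0.1. Of the 12 largest increases, 11 were genes of cell division, and the other was *Serpinb11*, a serpin. Libraries without any overlap between the 3 and 3 were common: the P3.5 libraries all lay above those of W10 for 3222 genes (18.9%) and all below for 3799 (22.2%). With the libraries of M4 as the never-pregnant group, 77 genes were called higher (0.451%) and 22 lower (0.129%), and without M4 replicate 2, a fit chosen after seeing the data, these counts were 198 and 22. Without P3.5 basal replicate 6, the calls between P3.5 and W10 numbered 447 higher and 104 lower. In edgeR on the recovered reads 835 genes were called higher (4.89%) and 229 lower (1.34%), of which 752 and 215 were also called by limma. In a fit of the 12 libraries of W10 and P3.5 alone, 975 (5.72%) and 609 (3.57%) were called. The libraries of a group are pools from separate sorts. In the main fit the p-values rest on the spread between libraries of a condition, with an estimate shared over all 16 conditions. Basal and luminal libraries of a sort were taken as independent there. Within W10 and within P3.5 all libraries had the same lane and amplification batch, so these groups hold no spread between batches.

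Genes of mitosis made up the clearest group. All 42 measured members of this list rose, with log2 differences from 1.47 (*Cks2*) to 5.06 (*Ube2c*) and a median of 3.81, against -0.1 over all genes. *Top2a*, the topoisomerase that untangles chromosomes before they separate, stood at 32.9, 16.6 and 7.32 CPM in the W10 libraries and at 593, 466 and 392 at P3.5. The lowest P3.5 library thus exceeded the highest of W10 by a wide margin, and the log2 difference was 4.81 ± 0.74 (adjusted p = 2.55e-05). *Ube2c*, the ubiquitin-conjugating enzyme of the anaphase-promoting complex, rose from 5.99, 2.97 and 2.47 CPM to 116, 146 and 206 (5.06 ± 0.76, adjusted p = 1.97e-05). *Bub1*, a kinase of the spindle checkpoint, rose from 1.33, 1.85 and 0.17 CPM to 72.1, 45.8 and 64.7 (4.94 ± 0.76, adjusted p = 2.48e-05). The value of 0.17 is below the level of 3 reads in that library. *Mki67*, the gene of the proliferation antigen Ki-67, varied among the P3.5 libraries, at 915, 292 and 476 CPM, and all 3 lay above the W10 values of 55.6, 26.4 and 16.6 (4.06 ± 0.78, adjusted p = 3.27e-04). *Ccna2* (cyclin A2), *Cenpf* (a kinetochore protein), *Tpx2* (a spindle assembly factor), *Anln* (anillin, which acts in cytokinesis), *Bub1b* (a checkpoint protein) and *Kif11* (a spindle motor) rose by log2 differences between 4.4 and 4.56. Outside the list, *Hmmr*, which binds hyaluronan and the spindle, and *Pbk*, a mitotic kinase, were also among the 12 largest increases, with 4.84 ± 0.76 and 4.53 ± 0.72 (adjusted p = 3.26e-05 and 3.55e-05). Per kilobase of transcript, *Smc4*, a condensin subunit, was the most abundant member, and its increase was the smallest of those named here but for *Cks2* (1.78 ± 0.42, adjusted p = 0.00317). Its call was lost without W10 replicate 3, 5 or 6 or P3.5 replicate 2 or 6 (adjusted p = 0.0103 to 0.0207). Without P3.5 replicate 6, 35 of the 42 genes were called higher. In the mitosis list *Ube2c* shares 22.8% of its exon bases with *Tnnc2* and *Ccna2* 12.5% with *Exosc9*, and reads there could be counted for either gene.

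**Figure D1:**
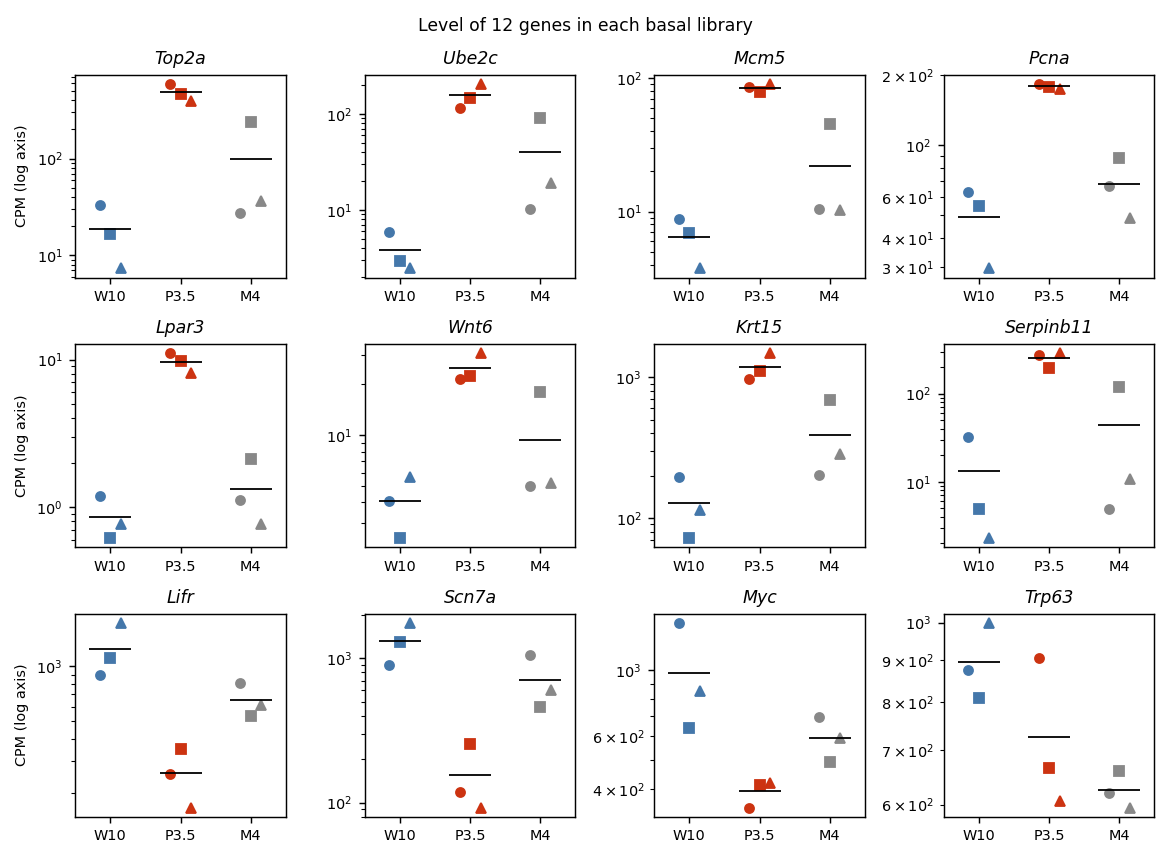
Level of 12 genes in each basal library, in CPM on a log axis, at W10 (blue), P3.5 (red) and M4 (grey); points are libraries, with circle, square and triangle for the replicates in order of number, and lines are means. *Top2a* lay between 7.32 and 32.9 CPM at W10 and between 392 and 593 at P3.5, and M4 replicate 2 (square) lay above the other M4 libraries for *Top2a*, *Mcm5*, *Krt15* and *Serpinb11*.

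Genes of DNA replication rose as well. Of 39 measured members, 28 rose and none fell, and the median log2 difference was 2.16. Positive differences were measured for all 39, the smallest being 0.67, and the 11 that did not pass the test included *Cdt1*, a licensing factor of replication origins (log2 difference 1.58, adjusted p = 0.0264). *Mcm5*, a subunit of the replicative helicase, stood at 8.72, 6.87 and 3.75 CPM at W10 and at 85.1, 78.9 and 90.6 at P3.5 (3.59 ± 0.79, adjusted p = 0.00143). *Uhrf1*, which guides maintenance methylation to newly copied DNA, had the largest difference (3.84 ± 0.85, adjusted p = 0.00155), followed by *Rrm2*, the small subunit of ribonucleotide reductase (3.65 ± 0.66, adjusted p = 1.67e-04). *Pcna*, the replication clamp and the most abundant member per kilobase, was almost level among the P3.5 libraries at 184, 179 and 175 CPM, and lay at 62.8, 54.7 and 29.6 at W10 (1.92 ± 0.27, adjusted p = 1.05e-05). Without P3.5 replicate 6 the call of *Mcm5* was lost (adjusted p = 0.0102), as it was without W10 replicate 6 (0.0127), and that of *Uhrf1* was lost without W10 replicate 6 (0.0166). Without P3.5 replicate 6, 18 of the 39 genes were called higher.

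Among 26 regulators of the G1 phase and of its exit, 6 rose and 1 fell. *E2f1*, an activator of S phase genes, rose from 1.11, 0.513 and 0.17 CPM to 14.7, 12.4 and 16.7 (3.32 ± 0.67, adjusted p = 6.26e-04), and *E2f7* and *E2f8*, repressors of the same family, rose by 2.94 ± 0.67 and 3.37 ± 0.67 (adjusted p = 0.00204 and 4.76e-04). *Rbl1*, the pocket protein p107, *Cdkn2c*, an inhibitor of CDK4 and CDK6, and *Cdk4* itself rose by 2.61, 2.1 and 1.63. *Myc* fell: its values were 1440.0, 643 and 849 CPM at W10 and 347, 412 and 419 at P3.5 (-1.24 ± 0.3, adjusted p = 0.00385). The groups did not overlap, but W10 replicate 3 was far above the others, and without it the difference was -0.91 (adjusted p = 0.0578). Leaving out any other library but W10 replicate 5 also left *Myc* with an adjusted p above 0.01 (log2 difference -1.15 to -1.3, adjusted p = 0.0101 to 0.0219). The call of *E2f7* was lost without P3.5 replicate 2 or 6 or W10 replicate 6 (2.68 to 2.94, adjusted p = 0.0123 to 0.0179), and that of *Cdkn2c* without P3.5 replicate 6 or W10 replicate 5 (2.03 and 1.88, adjusted p = 0.0128 and 0.0162). Against M4 none of the 26 was called: *E2f8* had 2.2 (adjusted p = 0.0692), *E2f7* 1.97 (0.115), *E2f1* 1.58 (0.24), *Cdk4* 0.75 (0.206) and *Myc* -0.59 (0.369). Without M4 replicate 2, 2 of the 26 were called. Among the basal libraries of W10 and P3.5, W10 replicate 3 also had the highest sum of dissociation-response genes, given below. The part of that library in the *Myc* value was not tested. *Cdk4* shares 19.7% of its exon bases with *Tspan31*.

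The mitosis list was summed in each library to follow it across the other time points. The sum was 368, 282 and 219.8 CPM in the W10 basal libraries and 4543, 2845 and 3723 at P3.5. At 14.5 days of pregnancy (P14.5), in libraries of the same amplification batch as P3.5 but of another lane, it was 710.2 and 752. The basal P14.5 libraries thus lay below all those of P3.5 by a wide margin. In involution the sum was 359.6, 659 and 1544 CPM in the Id2 libraries (replicates 2, 4 and 6) and 924, 294 and 1166 in those of Iw4 (replicates 3, 5 and 6), so these ran from within the W10 range to above it, and all lay below P3.5. The replication list gave 495, 429 and 352 CPM at W10, 2396, 2118 and 2155 at P3.5, and 527 and 593 at P14.5. M4 replicate 2, at 1289 CPM, again lay above the other M4 libraries (560.2 and 508). Read against M4, 1 of the 42 mitosis genes and 3 of the 39 replication genes were called, with median log2 differences of 2.14 and 1.43, and without M4 replicate 2 the counts were 25 and 13.

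**Figure D2:**
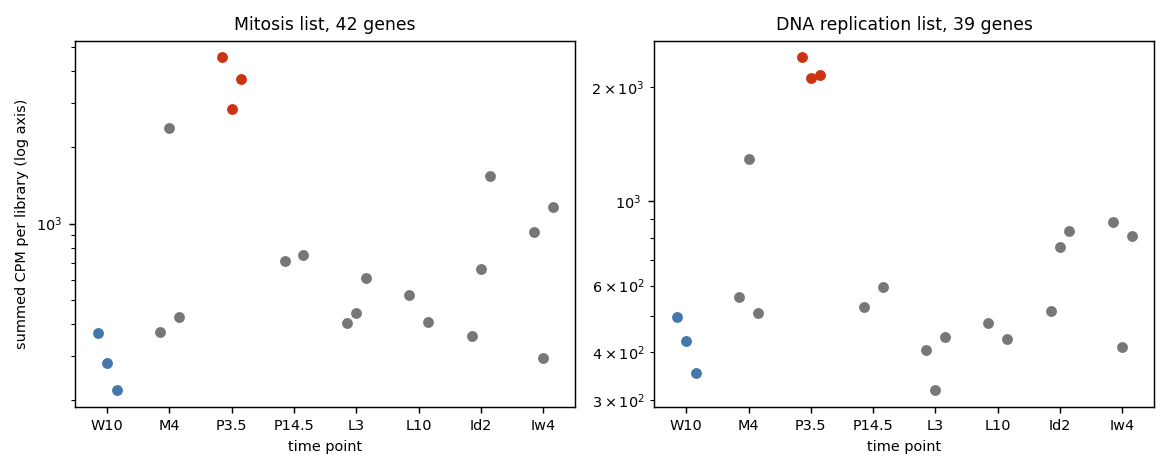
Summed level of the mitosis list (left) and the DNA replication list (right) in each of the 22 basal libraries, in CPM on a log axis, by time point (L3 and L10 are lactation, Id2 and Iw4 involution). The 3 P3.5 libraries (red) lay between 2845 and 4543 CPM for mitosis, above every other basal library; the next was M4 replicate 2 at 2398.

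The promoters of the genes with large increases are shown because mitosis and replication genes moved together and are known for distinct promoter elements. Late cell cycle promoters often carry the cell cycle homology region (CHR, searched as TTTGAA) next to CCAAT boxes (CCAAT), and S phase promoters often carry E2F sites (searched as TTTGGCGC, TTTCCCGC, TTTCGCGC and TTTGCCGC). A TCF form (CTTTGAT) was searched as well, all on both strands, in 300-base windows of RefSeq (GRCm38.p6) from 250 bases before to 50 after each gene's start. Windows were found for 35 of the 42 mitosis genes and 31 of the 39 replication genes. Each is written 5′ to 3′ on the gene's strand, with every match in capitals.
Ube2c, chr2:164769679-164769978, plus strand: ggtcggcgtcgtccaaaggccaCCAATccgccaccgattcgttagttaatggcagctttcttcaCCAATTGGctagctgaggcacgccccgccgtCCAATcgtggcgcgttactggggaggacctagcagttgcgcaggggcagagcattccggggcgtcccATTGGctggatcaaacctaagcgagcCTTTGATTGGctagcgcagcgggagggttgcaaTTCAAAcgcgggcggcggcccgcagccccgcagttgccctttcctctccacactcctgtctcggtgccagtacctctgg
Bub1, chr2:127831810-127832109, minus strand: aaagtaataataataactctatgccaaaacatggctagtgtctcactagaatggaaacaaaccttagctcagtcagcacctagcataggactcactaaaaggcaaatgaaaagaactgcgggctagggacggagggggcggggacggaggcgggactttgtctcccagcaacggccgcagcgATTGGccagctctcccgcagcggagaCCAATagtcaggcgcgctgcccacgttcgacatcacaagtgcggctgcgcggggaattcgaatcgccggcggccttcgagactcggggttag
Top2a, chr11:99024140-99024439, minus strand: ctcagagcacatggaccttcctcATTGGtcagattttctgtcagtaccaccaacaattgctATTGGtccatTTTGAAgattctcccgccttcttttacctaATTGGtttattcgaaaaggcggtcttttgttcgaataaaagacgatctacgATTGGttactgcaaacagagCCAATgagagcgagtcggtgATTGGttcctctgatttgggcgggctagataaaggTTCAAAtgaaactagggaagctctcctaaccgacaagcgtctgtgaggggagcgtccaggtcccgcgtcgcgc
Rrm2, chr12:24708004-24708303, plus strand: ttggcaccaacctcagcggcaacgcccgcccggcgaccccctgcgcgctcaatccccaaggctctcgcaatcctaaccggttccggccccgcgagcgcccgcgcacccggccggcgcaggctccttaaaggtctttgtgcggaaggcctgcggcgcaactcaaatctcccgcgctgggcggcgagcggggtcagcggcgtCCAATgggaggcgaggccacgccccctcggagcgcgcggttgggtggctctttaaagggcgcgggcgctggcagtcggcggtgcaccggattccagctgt
Mcm5, chr8:75109259-75109558, plus strand: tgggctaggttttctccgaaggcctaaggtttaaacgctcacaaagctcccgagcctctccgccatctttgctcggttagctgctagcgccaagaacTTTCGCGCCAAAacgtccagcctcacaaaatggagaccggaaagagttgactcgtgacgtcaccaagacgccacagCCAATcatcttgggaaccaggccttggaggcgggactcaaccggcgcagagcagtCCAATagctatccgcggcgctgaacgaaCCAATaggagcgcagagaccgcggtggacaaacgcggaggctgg
The *Ube2c* window held 1 CHR, 6 CCAAT boxes and 1 TCF form (overlapping a CCAAT box), *Top2a* held 2 CHR and 6 CCAAT boxes, and *Bub1* held 2 CCAAT boxes. Of the replication genes shown, *Mcm5* held 2 E2F forms, which overlap on opposite strands, and 3 CCAAT boxes, and *Rrm2* held 1 CCAAT box. CHR letters occurred in 26 of 37 mitosis windows (70.3%), in 4 of 36 replication windows (11.1%) and in 17.9% of all 32851 windows. E2F forms occurred in 3 mitosis windows (8.11%), 14 replication windows (38.9%) and 2.26% of all windows. CCAAT boxes were in 70.3%, 58.3% and 37.4%, and the TCF form in 5.41%, 0% and 3.73%. Of 23 windows found for 15 transducers and targets of the Wnt pathway, 0 held the TCF form. A match is a run of letters and not a measured site, and some genes have more than 1 window.

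Genes that make ribosomes and charge transfer RNA rose in part. Of 37 genes of ribosome biogenesis, 8 rose and none fell (median log2 difference 0.75), and of 20 cytoplasmic tRNA synthetases 5 rose and none fell (median 0.89). *Nhp2*, a protein of the small nucleolar particles that modify ribosomal RNA, rose from 7.39, 6.87 and 6.98 CPM to 32.8, 39.7 and 56.0 (2.41 ± 0.37, adjusted p = 2.61e-05). *Npm1*, nucleophosmin of the nucleolus, the most abundant member per kilobase, rose from 482, 440.4 and 503 CPM to 1019, 1147 and 1267 (1.26 ± 0.22, adjusted p = 1.29e-04). *Mrto4*, *Gar1*, *Fbl*, *Dkc1*, *Nop56* and *Utp14a* also passed. The 5 synthetases were *Gars*, *Kars*, *Mars*, *Tars* and *Rars*, with log2 differences from 1 to 1.15, close to the threshold of 1, and the calls of *Gars*, *Tars* and *Rars* were lost without at least 1 of the 6 libraries (lowest values 0.94, 0.96 and 0.85). With values rescaled by median ratios, *Tars* and *Rars* both came to 0.98. Against M4, 2 of the 37 ribosome genes and none of the 20 synthetases were called: *Nhp2* had 0.85 (adjusted p = 0.251), *Mrto4* 0.74 (0.339) and *Fbl* 0.63 (0.389), and *Npm1* was called (1.33, adjusted p = 7.89e-04). Without M4 replicate 2, 2 of the 37 and 2 of the 20 were called, the synthetases being *Mars* (1.13, adjusted p = 0.00726) and *Rars* (1.05, adjusted p = 0.00729). Without P3.5 replicate 6, 4 of the 37 ribosome genes were called higher. Of the ribosome genes, *Dkc1*, *Nop56* and *Fbl* lost their calls without P3.5 replicate 6 (1.53, 1.21 and 1.48, adjusted p = 0.0171, 0.0211 and 0.0103), *Nop56* and *Dkc1* also without W10 replicate 6 (0.95 and 1.56), and *Dkc1* without P3.5 replicate 2 or W10 replicate 5 (1.53 and 1.57).

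In the LPA pathway, 1 of 10 measured genes rose and none fell, and the median log2 difference was 0.03. The gene that rose was *Lpar3* (ENSMUSG00000036832), a receptor coupled to G proteins. It stood at 1.18, 0.615 and 0.767 CPM in the basal W10 libraries and at 11.0, 9.84 and 8.08 at P3.5. All P3.5 libraries were far above all W10 libraries, and the log2 difference was 2.52 ± 0.31 (adjusted p = 2.04e-06). Luminal cells held 0 to 0.35 CPM at W10 and 0.244 to 0.488 at P3.5, close to the level of 3 reads. The M4 basal libraries had 1.12, 2.11 and 0.762 CPM, and against M4 the gene was also called (2.22, adjusted p = 4.93e-05). Its call was lost, with the same direction, in edgeR on the recovered reads (3.51, adjusted p = 0.0155) and with a pseudocount of 0.1 (3.38, adjusted p = 0.0104). *Enpp2*, the gene of autotaxin, had 4.8, 1.95 and 8.35 CPM at W10 and 21.5, 14.2 and 21.2 at P3.5, without overlap, but its difference of 1.86 ± 0.95 did not pass (adjusted p = 0.195), and M4 replicate 2 held 30.1 CPM. In the fit of 12 libraries alone *Enpp2* was called (1.86, adjusted p = 0.00327). Of the other receptors, *Lpar1* (0.4 ± 0.71), *Lpar2* (-0.86 ± 0.44), *Lpar4* (0.08 ± 0.39), *Lpar5* (0.76 ± 0.51) and *Lpar6* (-0.8 ± 0.51) had adjusted p between 0.198 and 0.933. *Plpp3*, a phosphatase that degrades LPA and the most abundant member per kilobase, stood at 228, 262 and 339 CPM at W10 and at 157, 141 and 110.4 at P3.5 (-1.01 ± 0.34, adjusted p = 0.0403).

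In the Wnt pathway, calls were about as common as among all genes (4.97% higher, 1.79% lower). Of 13 measured ligands 1 rose, of 20 receptors 1 rose, of 15 inhibitors none was called, and of 21 transducers and targets 1 fell, with median log2 differences of -0.42, -0.34, 0.04 and -0.18. In the fit of 12 libraries alone, 1 inhibitor was called lower. The ligand was *Wnt6*, at 4.07, 2.46 and 5.62 CPM at W10 and 21.4, 22.6 and 30.6 at P3.5 (2.39 ± 0.44, adjusted p = 2.15e-04). It was nearly absent from luminal libraries, where the highest value was 0.163 CPM. Against M4 it was not called (1.53, adjusted p = 0.0532), but without M4 replicate 2 it was (2.07, adjusted p = 0.00604), and with a pseudocount of 0.1 the call was lost at an adjusted p of 0.01. The receptor was *Fzd10*, at 0.296, 0.103 and 0.681 CPM at W10, around the level of 3 reads, and 1.98, 1.71 and 2.31 at P3.5 (1.16 ± 0.23, adjusted p = 5.11e-04); *Fzd10* was not called by edgeR (adjusted p = 0.0821), with a pseudocount of 0.1 (0.0147) or against M4 (0.68, adjusted p = 0.116). *Tcf7*, a TCF factor, stood at 84.9, 40.3 and 51.9 CPM at W10 and 246, 167 and 166 at P3.5, without overlap, and missed the threshold (1.73 ± 0.54, adjusted p = 0.0235), though it was called in the fit of 12 libraries alone (adjusted p = 3.75e-04). *Ctnnb1* had 399.8, 345 and 377 CPM at W10 and 525, 472 and 557 at P3.5 (0.47 ± 0.22, adjusted p = 0.149), and *Lef1* stayed at or below 0.511 CPM in all 6 libraries. *Fzd7*, the most abundant receptor per kilobase, was lower in each P3.5 library (419, 300.2 and 273 CPM) than in any of W10 (689, 864 and 1336), with a difference of -1.51 ± 0.45 that did not pass (adjusted p = 0.018) except in the fit of 12 libraries alone (9.53e-04) or at a false discovery rate of 0.05. The fallen member of the targets was *Myc*, given above.

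**Figure D3:**
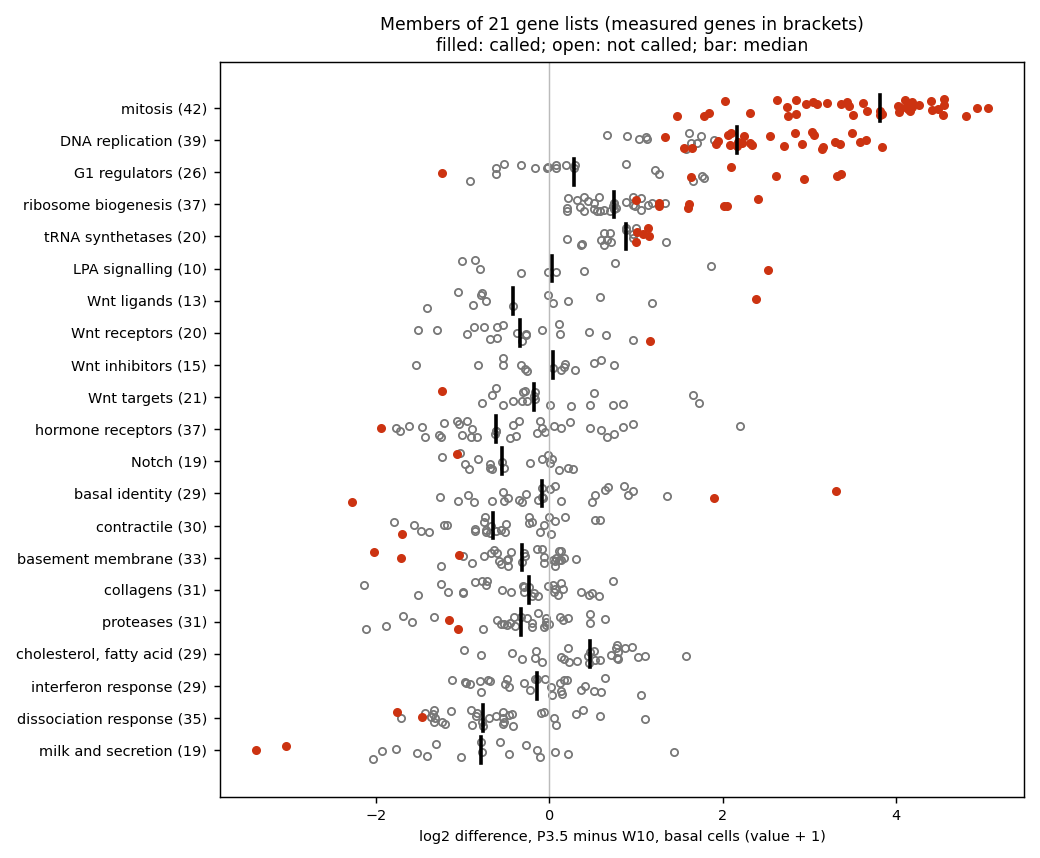
Log2 difference between P3.5 and W10 basal cells (x axis, on CPM + 1) for each measured member of 21 gene lists; filled points were called, open points were not, and bars are list medians. Mitosis members lay between 1.47 and 5.06 and were all called, while the LPA and Wnt lists spread on both sides of 0 with 1 or no called member each.

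Of 29 genes that mark basal cells, 2 rose and 1 fell, shares near those of all genes (4.97% and 1.79%), with a median log2 difference of -0.09. *Krt15*, a keratin of basal and progenitor layers, stood at 196, 72.0 and 113 CPM at W10 and at 976, 1100.4 and 1480.0 at P3.5 (3.31 ± 0.64, adjusted p = 3.67e-04). *Ngfr*, the low-affinity neurotrophin receptor, rose from 21.5, 12.1 and 11.5 CPM to 65.4, 96.5 and 28.9 (1.9 ± 0.49, adjusted p = 0.00664), with P3.5 replicate 6 close to the W10 range, and edgeR did not call it (adjusted p = 0.0385). The call of *Ngfr* was also lost without P3.5 replicate 2 or 4 or W10 replicate 5 or 6 (1.53 to 1.81, adjusted p = 0.0294 to 0.0568). *Lifr*, the receptor of leukaemia inhibitory factor, fell from 892, 1112 and 1736 CPM to 256, 349 and 167 (-2.28 ± 0.37, adjusted p = 5.19e-05). *Serpinb11* was at 32.0, 4.92 and 2.3 CPM at W10 and at 273, 197 and 287 at P3.5 (4.86 ± 0.82, adjusted p = 8.58e-05). In M4 basal cells, replicate 2 was the highest of 3 for *Krt15* (689 CPM), *Serpinb11* (118) and *Wnt6* (17.9), the same library that was high in mitosis genes. Against M4 the differences of *Krt15*, *Ngfr* and *Lifr* were 1.77, 1.39 and -1.38 (adjusted p = 0.141, 0.136 and 0.0366), and that of *Krt15* without M4 replicate 2 was 2.28 (0.0583), so none of the 3 was called. *Serpinb11* had 3.63 against M4 (adjusted p = 0.0116) and 4.91 without M4 replicate 2 (4.00e-04).

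Of 30 contractile genes 1 fell and none rose (against 1.79% lower among all genes), the median log2 difference was -0.64, and the P3.5 libraries lay below all W10 libraries for 16 of them, against a background of 22.2%. The gene that fell was *Smtn*, smoothelin of smooth muscle, from 353, 336 and 517 CPM to 106, 133 and 126 (-1.7 ± 0.34, adjusted p = 4.83e-04). Against M4 *Smtn* was not called (-1.03, adjusted p = 0.0933), nor was any member of the lists of this paragraph. In the fit of 12 libraries alone, 7 of the 30 were called lower. Of 33 genes of the basement membrane and its receptors, 3 fell: *Lamc3*, a laminin chain, *Itga1* and *Itgb8*, integrin subunits (-2.02, -1.71 and -1.04, adjusted p = 0.00168, 0.00826 and 0.00757). None of these 3 was called by edgeR, and each lost its call without P3.5 replicate 6 (-1.98, -1.54 and -0.96) or W10 replicate 6 (-1.78, -1.55 and -0.9), among other libraries. None of 31 collagens was called by limma over all libraries (2 were lower in the fit of 12 libraries alone). Of 31 proteases and inhibitors *Ctsl* and *Timp2* fell (-1.16 and -1.05), and 4 were lower in the fit of 12 libraries alone. Of 19 Notch genes, *Maml1*, a coactivator, fell (-1.07, adjusted p = 0.0031). *Ctsl* was not called by edgeR (-1.08, adjusted p = 0.0163), in the fit of 12 libraries (adjusted p = 0.0188) or against M4 (-0.24, adjusted p = 0.827). The calls of *Ctsl*, *Timp2* and *Maml1* were lost without single libraries (-0.87 without P3.5 replicate 2, -0.92 without W10 replicate 6 and -0.87 without W10 replicate 3, for example).

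Hormone and growth factor receptors and ligands had a median log2 difference of -0.61 over 37 genes, with 1 called. *Ghr*, the growth hormone receptor, fell from 89.9, 126 and 181 CPM to 32.3, 30.4 and 34.4 (-1.94 ± 0.37, adjusted p = 3.31e-04). Against M4 it was not called (-1.28, adjusted p = 0.0543). *Oxtr*, the oxytocin receptor, through which myoepithelial cells contract, had 1133, 1459.7 and 2403 CPM at W10 and 681, 462 and 593 at P3.5, without overlap and without a call (-1.47 ± 0.78, adjusted p = 0.216). In the fit of 12 libraries alone, 7 of the 37 were called lower. Cholesterol and fatty acid synthesis (29 genes, median 0.47) and the interferon response (29 genes, median -0.14) had no called member in limma over all libraries. In the fit of 12 libraries alone, 2 genes of the first list were higher, and 1 of the second was higher and 1 lower.

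The largest decreases included several genes in none of these lists. *Scn7a*, an atypical sodium channel, fell from 903, 1305 and 1757 CPM to 118, 254 and 92.6 (-3.17 ± 0.74, adjusted p = 0.00252). Its luminal level was 10.1 CPM or less. *Plxna4*, a semaphorin receptor, fell from 69.9, 103 and 119 CPM to 6.96, 17.2 and 5.2 (-3.31 ± 0.65, adjusted p = 4.64e-04). *Xkr4*, of the XK family, *Grik3*, a kainate receptor subunit, *Brinp3*, *Papln* and *Thsd7a* fell by log2 differences between -2.82 and -3.54. *Zbtb16*, the zinc finger repressor PLZF, fell from 36.1, 59.1 and 29.6 CPM to 3.28, 7.9 and 1.95 (-3.08 ± 0.52, adjusted p = 7.64e-05). *C4b*, a complement component, stood at 74.9, 72.6 and 83.4 CPM at W10 and at 4.02, 15.3 and 5.48 at P3.5 (-3.27 ± 0.75, adjusted p = 0.00219). P3.5 replicate 4 was the highest of its group for all 12 of the largest decreases, and the luminal library of that sort was the highest of its group for *Papln*, *Btn1a1*, *C4b*, *Zbtb16*, *Ltf* and *Plin4* (the rule that named the decreases asked for no overlap with W10). In edgeR *Scn7a* and *Grik3* were not called (-3.05 and -2.74, adjusted p = 0.01 and 0.0213). Against M4, *Scn7a*, *Grik3* and *Zbtb16* had -2.23, -2.12 and -1.53 (adjusted p = 0.103, 0.117 and 0.112) and were not called, nor were *Plxna4* (-2.39, adjusted p = 0.0394), *Xkr4* (-2.33, 0.0213), *Papln* (-2.29, 0.0615) and *Thsd7a* (-2.02, 0.0456). *Brinp3* was called (-3.13, adjusted p = 1.61e-06), and so was *C4b* (-3.54, adjusted p = 0.00707), which lost the call without M4 replicate 2 (-3.45, adjusted p = 0.0148). Without P3.5 replicate 6 the calls of *Scn7a*, *C4b*, *Grik3* and *Papln* were lost (-2.87, -3.11, -2.4 and -2.85, adjusted p = 0.0265, 0.0179, 0.0581 and 0.0123). Without W10 replicate 6 those of *Scn7a*, *C4b* and *Grik3* were lost too (-2.94, -3.21 and -2.64), as they were without P3.5 replicate 2 (-3.05, -2.92 and -2.92), and without W10 replicate 5 those of *Scn7a* and *Grik3* (-3.15 and -2.9).

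Of 19 genes of milk and secretion, 2 fell and none rose (against 1.79% lower and 4.97% higher among all genes), and the median log2 difference was -0.79. With M4 as the never-pregnant group the median was -2.37, and 0 of the 19 had a positive difference. *Btn1a1*, butyrophilin of the milk fat globule, had 230.1, 262 and 55.8 CPM in the W10 basal libraries and 7.58, 28.1 and 11.3 at P3.5 (-3.38 ± 0.78, adjusted p = 0.00236). *Ltf*, lactoferrin, had 139, 154 and 61.8 CPM at W10 and 7.97, 22.8 and 10.5 at P3.5 (-3.04 ± 0.75, adjusted p = 0.00446). Both were higher in luminal cells, where *Btn1a1* stood at 1836, 1001 and 2034 CPM at W10 and at 128, 567 and 168 at P3.5. In the same basal libraries the 25 luminal markers summed to 2269, 3728 and 1204 CPM at W10 and to 1209, 1731 and 1471 at P3.5, which overlap, none of the 25 was called by limma over all libraries, 1 was lower in the fit of 12 libraries alone, and *Krt19* was their most abundant member per kilobase. The calls of both milk genes were lost without P3.5 replicate 2 or 6 or W10 replicate 3 or 5 (-2.98 to -3.26 for *Btn1a1* and -2.75 to -2.92 for *Ltf*). Against M4 *Btn1a1* was not called (-3.3, adjusted p = 0.0165), while *Ltf* was (-3.42, adjusted p = 0.00929). Without M4 replicate 2, *Ltf* lost this call (-3.47, adjusted p = 0.0147). The part of luminal RNA in the decrease of the milk genes was not tested.

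Of the markers of other cells, 1 was called by limma over all libraries. The fit of 12 libraries alone called 3 adipocyte markers and 1 immune marker lower, and 2 fibroblast markers higher and 1 lower. The 18 endothelial markers summed to 230.0, 417 and 207 CPM at W10 and to 28.7, 33.9 and 122 at P3.5, with a median log2 difference of -1.51. None of the 18 passed the test, and for 11 of them the P3.5 libraries lay below all of W10, against 22.2% of all genes. The fit of 12 libraries alone called 6 of the 18 lower. *Pecam1*, a defining marker whose protein CD31 was among those used to remove lineage-positive cells in the sort, stood at 26.4, 55.6 and 22.3 CPM and at 1.7, 3.21 and 14.3, and *Eng* was the most abundant member per kilobase. The 12 pericyte markers summed to 173, 194 and 214 CPM and to 95.7, 90.2 and 163, led by *Mcam* per kilobase. The 10 adipocyte markers, led by *Pnpla2*, summed to 168, 223 and 157 CPM and to 56.4, 85.4 and 67.0, and 1 of them, *Plin4*, fell (-3.36 ± 0.61, adjusted p = 1.99e-04), from 13.6, 20.7 and 26.1 CPM to 1.41, 2.31 and 0, though not against M4 (-2.22, adjusted p = 0.0407). The 19 immune markers, led by *Cd74*, summed to 86.4, 88.2 and 44.7 CPM and to 37.6, 51.6 and 62.4, with *Ptprc*, their defining marker, whose protein CD45 was used in the same removal, at 0 in W10 replicates 3 and 6 and at most 1.01 CPM elsewhere. The 18 fibroblast markers, led by *Postn*, summed to 2296, 2610.3 and 3189 CPM at W10 and 1893, 2187 and 2246 at P3.5. Without *Postn*, the other 17 summed to 846, 468 and 693 CPM at W10 and to 1509, 1290 and 1724 at P3.5, without overlap and in the other direction, and the median log2 difference of the 18 was 0.05. The 9 Schwann cell markers, led by *Egr2*, which basal cells also express, summed to 2080.0, 1193 and 1489 and to 787, 1136 and 1103. Beside CD31 and CD45, the paper lists Cd140a (as the human antigen) among the lineage markers used for removal in the sort. In such sorted pools, fewer cells of a type and less RNA per cell cannot be told apart. The part of these cells in the genes that rose or fell was not tested.

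**Figure D4:**
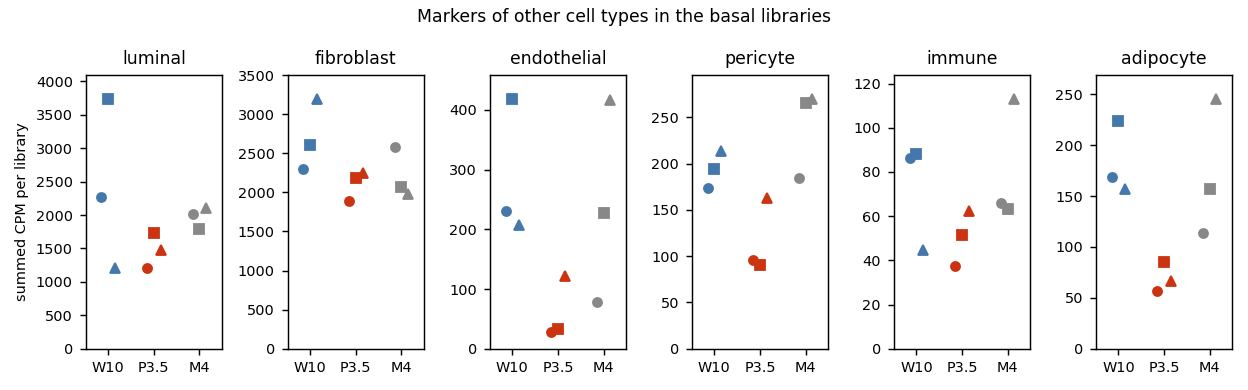
Summed level of the markers of 6 other cell types in each basal library, in CPM on linear axes from 0, at W10 (blue), P3.5 (red) and M4 (grey); points are libraries, with circle, square and triangle for the replicates in order of number. Endothelial sums lay between 207 and 417 CPM at W10 and between 28.7 and 122 at P3.5, and luminal and immune sums overlapped.

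Of 35 genes of the response to tissue dissociation, 2 fell (against 1.79% lower among all genes). They were *Jund* (-1.76, adjusted p = 5.08e-04) and *Jun* (-1.47, adjusted p = 0.00196), and the median log2 difference of the list was -0.77. The P3.5 libraries lay below all W10 libraries for 16 of the 35 (22.2% among all genes) and above for 1 (18.9%). The 35 genes summed to 52136, 21570.1 and 32033 CPM at W10 and to 15205, 14996 and 19322 at P3.5, led by *Egr1* per kilobase. In the fit of the 12 libraries of W10 and P3.5 alone, 4 of the 35 were called lower in basal cells. Luminal cells of the same sorts showed a median of -0.88, with 5 of the 35 called lower (against 0.422% of all genes in luminal cells). The call of *Jun* was lost without P3.5 replicate 6 or W10 replicate 3 (-1.48 and -1.13, adjusted p = 0.0109 and 0.0332). Against M4 neither was called (*Jund* -1.26, adjusted p = 0.0417, and *Jun* -0.73, adjusted p = 0.287). The part of cell handling in these values was not tested.

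Luminal cells of the same sorts were set beside basal cells to ask whether the change differed between them. In luminal cells 239 genes were called higher and 72 lower at P3.5 (1.4% and 0.422% of 17078, 1.82% in either direction). The mitosis list had a luminal median log2 difference of 2.89 with 22 of 42 called, and the replication list 1.91 with 16 of 39. Basal differences were larger than luminal ones for 40 of 42 mitosis genes and 31 of 39 replication genes, but the difference between cell types passed the test for none of them. That test left out the pairing of basal and luminal libraries by sort. For *Top2a*, luminal libraries held 45.8, 21.8 and 12.8 CPM at W10 and 397, 207 and 334 at P3.5, and the basal difference exceeded the luminal one by 1.18 ± 1.05 (adjusted p = 1), an error too wide to show that both cell types changed alike.

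The change differed between cell types for 4 genes (0.0234% of 17078), in each case larger in basal cells. These were chosen by that test, and 3 of them have means under 5 CPM even in basal cells at P3.5. *Glb1l3*, a galactosidase-like gene, had 0.296, 0.103 and 0.341 CPM in basal cells at W10, at about the level of 3 reads or below, and 13.97, 7.9 and 6.57 at P3.5. In luminal cells it was at 0.163 CPM or less, and the basal difference exceeded the luminal one by 2.99 ± 0.35 (adjusted p = 3.74e-06). *Tmem114* had 0.444, 0 and 0 CPM in basal cells at W10 and 6.05, 4.1 and 1.88 at P3.5 (1.98, adjusted p = 3.74e-04). *Krt73*, a keratin of the hair follicle sheath, had 0.256 to 0.444 and then 3.73, 6.86 and 4.19 CPM (1.9, adjusted p = 0.00611), and *Izumo1r*, of the folate receptor family, had 0.0852 to 0.222 and then 5.26, 3.5 and 2.09 CPM (1.81, adjusted p = 0.00528). *Lpar3* had an excess of 2.32 with an adjusted p of 0.0192, short of the threshold of 0.01. With the sort as a replicate block, 12 genes passed and *Lpar3* was one of them (adjusted p = 0.00507). In the fit of the 12 libraries of W10 and P3.5 alone 6 genes passed, and *Lpar3* had an adjusted p of 0.00924. In edgeR 0 genes passed, against 802 at an unadjusted p under 0.05, and limma gave 743 at that level, both fewer than the 854 that this level would give if no gene changed. Both of these fits took the basal and luminal libraries of a sort as independent, though their deviations correlated (0.189 to 0.362 in W10 and P3.5). These counts therefore cannot show that the cell types changed alike. With a pseudocount of 0.1 in limma 0 genes passed as well, and *Glb1l3* had 4.66 (adjusted p = 0.305). Without P3.5 luminal replicate 2 or 4, W10 basal replicate 3 or 5, or W10 luminal replicate 5, 2 genes passed.

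**Figure D5:**
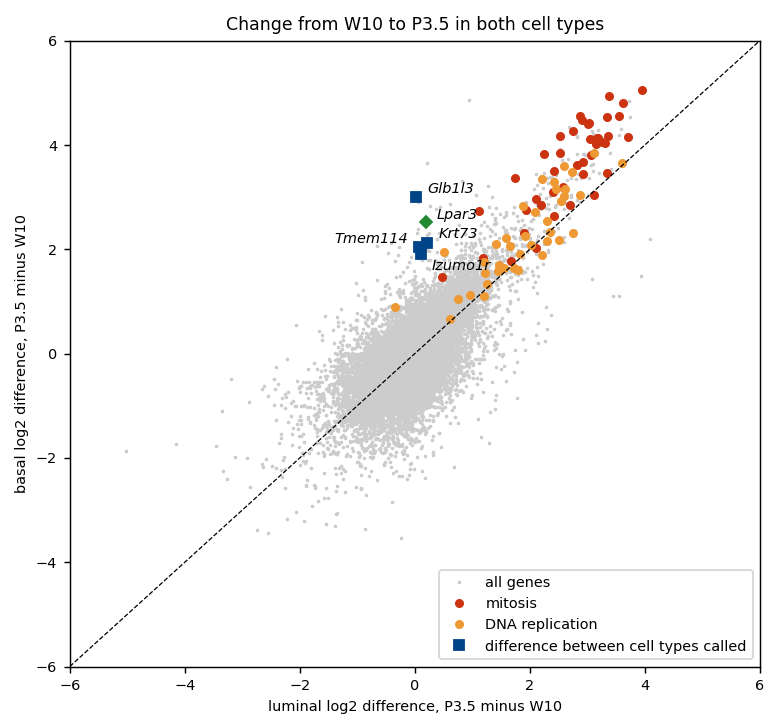
Log2 difference between P3.5 and W10 (on CPM + 1) in luminal cells (x axis) and basal cells (y axis) for all 17078 genes, with mitosis genes in red, DNA replication genes in orange, *Lpar3* as a diamond and the 4 genes whose change differed between cell types as squares; the dashed line marks equal change. Mitosis genes had medians of 2.89 in luminal and 3.81 in basal cells, and *Glb1l3* had 0.03 and 3.01.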

How the data were processed

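Sorted cells were profiled by RNA-seq after amplification of 5 ng of RNA. Per the paper's methods, the authors aligned reads with GSNAP to mouse NCBI Build 37, counted them with htseq-count, removed rare and very abundant low-variance genes, and deposited a normalized signal, CPM scaled by edgeR's effective library sizes. Whole reads were recovered for 100% of values (tolerance 0.01 reads). No library pair was identical.

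Here limma 3.58.1 (R 4.3.3) with a mean-variance trend was fitted to log2 of value + 1 over 16 condition means and 46 libraries (30 residual degrees of freedom), with Benjamini-Hochberg adjustment over 17078 genes and calls at a log2 difference of at least 1 and an adjusted p under 0.01. Errors are standard errors (n = 3 libraries a group). The fit was tested on simulated data. Alternatives were edgeR 4.0.16 on the recovered reads, a pseudocount of 0.1, other filters, scaling, a false discovery rate of 0.05, the sort as block, fewer libraries and M4. Same-numbered basal and luminal libraries came from the same sort, and their deviations correlated in each of the 6 sorts of W10 and P3.5 (0.189 to 0.362).

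Named genes were the 12 largest called changes each way (mean of at least 5 in the higher group, no overlap of libraries), LPA genes with *Ctnnb1*, *Lef1* and *Tcf7*, up to 6 called members each way and the most abundant member of each list, up to 5 genes each way whose change differed between cell types, and label checks. *Cdt1*, *Cks2*, *Izumo1r*, *Krt73*, *Mki67*, *Pecam1*, *Ptprc*, *Tmem114* and *Utp14a* were named after their values were seen. Members and lists were chosen with earlier results of these data known.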

Additional observations from a re-analysis of the deposited data

Results flagged for a closer look

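For 4 genes the change from W10 to P3.5 differed between basal and luminal cells by the test of the difference itself, in limma. The basal log2 difference exceeded the luminal one by 2.99 for *Glb1l3* (3.01 against 0.03, adjusted p = 3.74e-06), by 1.98 for *Tmem114* (2.05 against 0.07, adjusted p = 3.74e-04), by 1.81 for *Izumo1r* (1.92 against 0.11, adjusted p = 0.00528) and by 1.9 for *Krt73* (2.12 against 0.22, adjusted p = 0.00611). Groups of 3 libraries were too small for a search for single outlying libraries by a set rule. The libraries said above to stand apart were named after their values were seen.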

How the results depend on the processing

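The count of 1154 genes called between P3.5 and W10 basal cells became 1783 at a false discovery rate of 0.05, 99 with M4 as the never-pregnant group, and 220 with M4 but without its replicate 2, a fit chosen after seeing the data. Leaving out 1 library at a time gave 551 to 1066, the lowest without P3.5 replicate 6. The 12 libraries of W10 and P3.5 alone, less 19 genes at 0 in all of them, gave 975 higher and 609 lower. With the sort as a replicate block the count was 1175. Members called over all lists numbered 109, against 8 with M4 and 46 without its replicate 2, and 76 to 97 without single libraries. Genes whose change differed between cell types numbered 4, against 12 at a rate of 0.05, 12 with the replicate block and 6 in the 12 libraries alone. They numbered 2 with M4 (with or without its replicate 2), 2 with a mean of at least 1, and 0 with a mean of at least 5, a pseudocount of 0.1 or edgeR. Without single libraries they numbered 2 to 4. The block changed no other call among the 68 named called genes. Of these 68, 59 kept their call in edgeR, 59 with a pseudocount of 0.1, 66 after rescaling, 65 in the 12 libraries alone, 7 against M4, 23 against M4 without its replicate 2, and 47 to 62 without single libraries, and none reversed. Of 41 uncalled named genes, 4 were called in the 12 libraries alone (*Enpp2*, *Tcf7*, *Fzd7* and *Postn*) and 3 at a rate of 0.05 (*Plpp3*, *Tcf7* and *Fzd7*).

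Of the 848 genes called higher and 306 called lower, 775 and 305 had the same direction against M4, which shares the P3.5 libraries, and 65 and 12 were called there too. Among the named genes, reversals were of uncalled ones. Against M4, and against M4 without replicate 2, the values were -0.19 and -0.01 for *Lpar4*, -0.4 and -0.49 for *Wif1*, 0.12 and 0.09 for *Jag1*, 0.78 and 0.72 for *Col4a2*, 0.33 and 0.26 for *Sparc*, -0.39 and -0.5 for *Adamts1*, 0.19 and 0.23 for *Trp63*, 0.15 and 0.03 for *Cd24a*, and 0.13 and 0.04 for *Itgb1*. In edgeR *Jag1* had 0.03. Leaving out 1 library at a time, the values ran from -0.23 to 0.39 for *Lpar4*, -0.16 to 0.2 for *Plpp2*, -0.11 to 0.33 for *Wif1*, -0.35 to 0.29 for *Jag1*, -0.16 to 0.14 for *Ifi27*, -0.32 to 0.04 for *Mfge8*, -1.17 to 0.08 for *Krt19*, -0.59 to 0.18 for *Cd74*, -0.58 to 0.33 for *Krt8*, -0.51 to 0.01 for *Cd24a* and -0.14 to 0.01 for *Itgb1*. The cause of these shifts was not tested.

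A fit within batches was not run, since W10 and P3.5 shared no lane or amplification batch. In the basal libraries of W10 and P3.5, 3 reads correspond to between 0.17 and 0.308 CPM, which limits what can be said of genes at that level.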
